A study of Homo sapiens with 42 samples.

Results

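N6-methyladenosine (m6A) is a methyl group on adenosines within mRNA, and the peaks described here are sites of this mark that were listed in control HepG2 cells and in neither of the 2 SETD2 knockdowns. HepG2 is a line of human hepatocellular carcinoma cells. In the assay, m6A-seq, sheared mRNA is pulled down with an antibody to the mark (IP) and sequenced beside the same RNA without pull-down (input). A peak is a stretch of a transcript where IP reads exceed input reads. The members were selected on presence and absence in the authors' peak lists, so their absence from the SETD2 lists is the rule and not a result. A control peak was eligible if it shared at least 1 base of its blocks, on the same strand, with a peak of the second control list and with a peak of at least 1 of the METTL3, METTL14 and WTAP lists. Of 33672 control peaks, 21959 were eligible, and 913 of these had no peak in the SETD2 #1 list and none in the SETD2 #2 list.

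Short hairpin RNAs (shRNAs) were brought in by lentivirus and kept under puromycin selection. The conditions were shRNA SETD2 #1, shRNA SETD2 #2, shRNAs to METTL3, METTL14 and WTAP, a non-specific control shRNA, and a further control shRNA for the SETD2 #2 experiment, hereafter the second control. Each condition had 3 input and 3 IP libraries, 42 in all, and the authors called 1 list per condition from the 3 replicates together. The labels name 1 shRNA for each of METTL3, METTL14 and WTAP, and do not say whether the replicates were separate cultures.

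METTL3 is the catalytic subunit of the complex that writes m6A, METTL14 is its RNA-binding partner, and WTAP is an adaptor that places the complex in nuclear speckles. The mark is known to gather near stop codons, in 3′ untranslated regions and in long internal exons. SETD2 is a histone methyltransferase that trimethylates histone H3 in the bodies of transcribed genes. The comparison asks which sites of the RNA mark are no longer listed when SETD2 is reduced.

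Of the eligible peaks, 9.55% had no peak in the SETD2 #1 list, 13.4% had none in the SETD2 #2 list, and 4.16% (exact 95% interval 3.90 to 4.43) had none in either, which are the members. A further 1184 eligible peaks were absent from the SETD2 #1 list only and 2023 from the SETD2 #2 list only, and 17839 were present in both. Without the conditions on the other lists, 18.9% of all control peaks were absent from both SETD2 lists. Intervals of shares are exact (Clopper-Pearson) and hold counting error alone. With 1 list per condition no difference between conditions has a replicate error or a test. A peak can leave a list because the transcript is scarcer, because it carries less of the mark or because fewer reads were sequenced, and these cannot be told apart in a peak list.

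The SETD2 #1 list was the shortest, with 28645 peaks, and the SETD2 #2 list held 29259. The METTL3, METTL14 and WTAP lists held 30352, 28841 and 29392 peaks, the control list 33672 and the second control list 31249. Median fold enrichment, the authors' ratio of IP over input, was 5.32 in the SETD2 #1 list and 3.81 in the SETD2 #2 list, against 6.79 in the control list and 4.33 in the second control list. The rule was therefore also applied with all lists shortened to the 28645 peaks of lowest p, an alternative chosen after seeing the data. It then found 548 members, 2.70% of eligible peaks, and 528 of them were among the 913. Membership depends on which weak peaks the lists admit: in the shorter list that the authors also deposited for each condition, 722 peaks met the rule, and 114 of them were among the 913.

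The members were weak peaks by p-value, with a median fold enrichment equal to that of the peaks present in both SETD2 lists. The medians were not equal among the weakest peaks by p, as given below. Their median log10 p in the control list was -4.77 (quartiles -6.98 and -3.38; a more negative value is a stronger peak), against -40.6 for the peaks present in both SETD2 lists. Their median fold enrichment in the control list was 8.57 (quartiles 3.86 and 14.6), and it was also 8.57 (quartiles 4.48 and 18.7) for the peaks present in both. The members were narrow, with a median of 181 bases of blocks against 391 bases for the peaks present in both. A single block, with no intron inside the peak, was found in 628 members (68.8%, 65.7 to 71.8) and in 51.4% of the peaks present in both. At least 3 blocks were found in 57 members (6.24%) and in 20.6% of the peaks present in both.

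The spread among the members was wide. Their fold enrichment in the control list ran between 1.32 and 92.6, their log10 p between -103 and -1.94, and their width between 58 and 839 bases. The fold reached at least the median of the control list in 527 members (57.7%), beside 57.6% of all eligible peaks. The p-value reached that list's median in 71 members (7.78%), beside 70.6% of all eligible peaks.

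**Figure D1:**
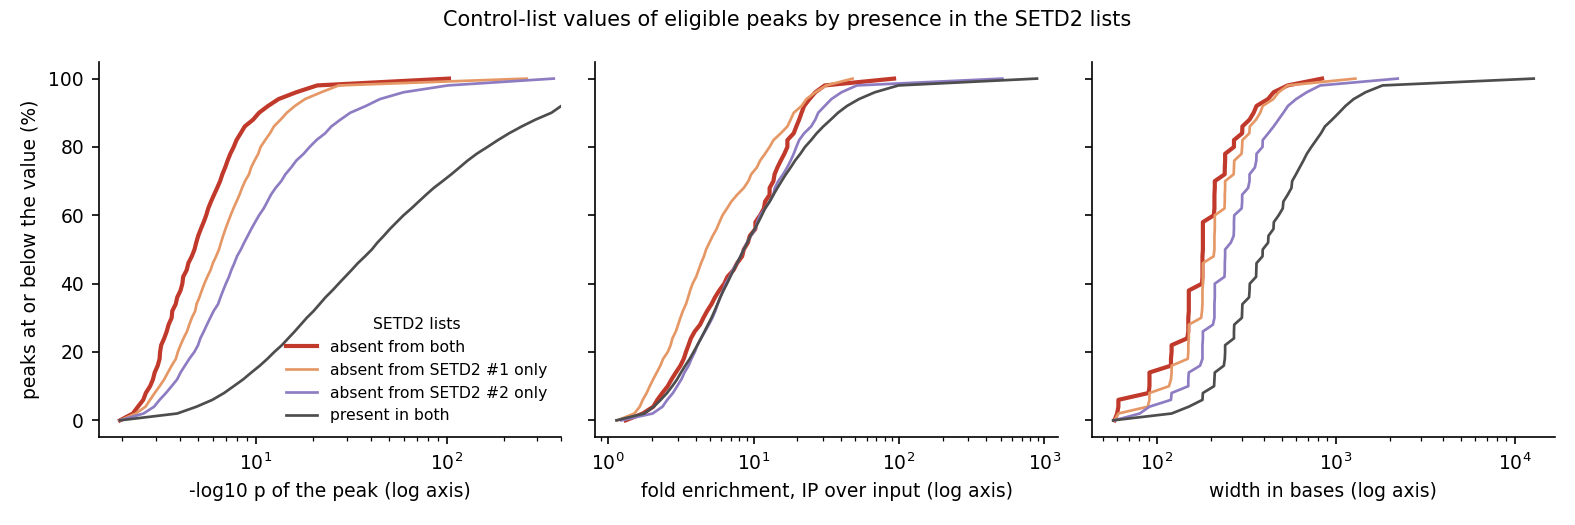
Cumulative share of eligible peaks (%) against the control-list −log10 p, fold enrichment of IP over input and width in bases, each on a log axis, for the 913 peaks absent from both SETD2 lists, 1184 absent from SETD2 #1 only, 2023 absent from SETD2 #2 only and 17839 present in both. The curves separate by p (median log10 p -4.77 for the members and -40.6 for peaks present in both) and by width, while the fold curves of the members and of the peaks present in both cross near the shared median of 8.57; the first axis ends before the strongest of the peaks present in both.

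Ranked by p, the quintile of eligible peaks with the best values held 0 members of 4392, which allows a share of up to 0.0840% (exact interval, counting error only). The next quintiles held 7, 21 and 130 members, and the weakest quintile held 755 (17.2%). Ranked by width the members gathered in the same manner, with 10 in the widest quintile and 614 (14.0%) in the narrowest. Ranked by fold enrichment they did not, with 95, 273, 179, 142 and 224 members between the highest and the lowest quintile. Absence from each SETD2 list taken singly was also most frequent in the weakest quintile by p, at 34.6% of its peaks for SETD2 #1 and 39.3% for SETD2 #2.

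Within that weakest quintile the members can be set beside 1901 weak peaks that both SETD2 lists held. The 2 sets were nearer in p there but not matched: the median log10 p was -4.14 in the 755 members and -5.54 in the peaks present in both. A false discovery rate (FDR) of at most 1e-05 was reached by 23.0% of these members and 45.8% of the peaks present in both. The median width was 180 bases in the members (quartiles 121 and 211) and 181 bases in the peaks present in both (quartiles 151 and 270). In the second control list it was 151 bases for the members and 210 bases for the peaks present in both, so the members were still the narrower set, by less than over all eligible peaks. The share with a single block was 70.3% in the members and 68.2% in the peaks present in both. The median fold in the control list was 8.57 in the members and 4.46 in the peaks present in both. In the second control list it was 6.11 in the members and 4.58 in the peaks present in both. The number of reads behind each peak is unknown from these files.

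The values themselves took repeated steps. In the control list 12 pairs of fold and log10 p were each held by at least 100 peaks, with folds between 8.57 and 18.0 spaced on average 0.857 apart. These pairs held 138 of the members (15.1%) and 6.59% of all control peaks. A pair shared by at least 10 control peaks was found for 323 members (35.4%, 32.3 to 38.6) and for 2.33% of the peaks present in both. Within the weakest quintile by p it was found for 41.3% of the members and 16.1% of the peaks present in both. The 913 members held 653 distinct pairs, and the commonest was shared by 19 of them.

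The writer knockdown lists, which are the METTL3, METTL14 and WTAP lists, held the members less fully than they held other eligible peaks. The METTL3 list held 630 members (69.0%, 65.9 to 72.0), the METTL14 list 530 (58.1%, 54.8 to 61.3) and the WTAP list 596 (65.3%, 62.1 to 68.4). The peaks present in both SETD2 lists were held at 97.9%, 91.2% and 91.2%. All 3 writer lists held 288 members (31.5%), against 86.4% of the peaks present in both, while 358 members (39.2%) were in exactly 1 of them. That list was the METTL3 list for 159 members, the WTAP list for 118 and the METTL14 list for 81. Within the weakest quintile by p all 3 writer lists held 27.8% of the members (24.6 to 31.2) and 53.2% of the peaks present in both (51.0 to 55.5). The rule asked for at least 1 writer list in either class, and the 3 share the control with SETD2 #1.

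Where a writer list held a member, its fold there was of the same order as that of the peaks present in both SETD2 lists. The median fold was 7.61 for the members and 8.29 for the peaks present in both in the METTL3 list, 7.84 and 7.63 in the METTL14 list, and 9.38 and 7.41 in the WTAP list. In the second control list it was 5.85 for the members and 5.15 for the peaks present in both. The members' median log10 p was weak in each of these lists, at -3.96 with METTL3, -4.33 with METTL14, -4.66 with WTAP and -4.06 in the second control list. Single matching peaks reached far stronger values. A matching peak is the peak of the other list that shares most bases with the member. It can extend beyond the member or match several members, so its values need not be those of the member's own stretch. The fold was higher in the METTL3 list than in the control list for 255 of 630 members (40.5%), beside 42.8% of all eligible peaks. It was higher in the METTL14 list for 242 of 530 (45.7%), beside 35.9%, and in the WTAP list for 246 of 596 (41.3%), beside 33.4%. Within the weakest quintile by p the members were below the peaks present in both in this measure, at 45.4% against 55.3% with METTL3, 50.6% against 57.2% with METTL14 and 45.6% against 52.8% with WTAP.

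**Figure D2:**
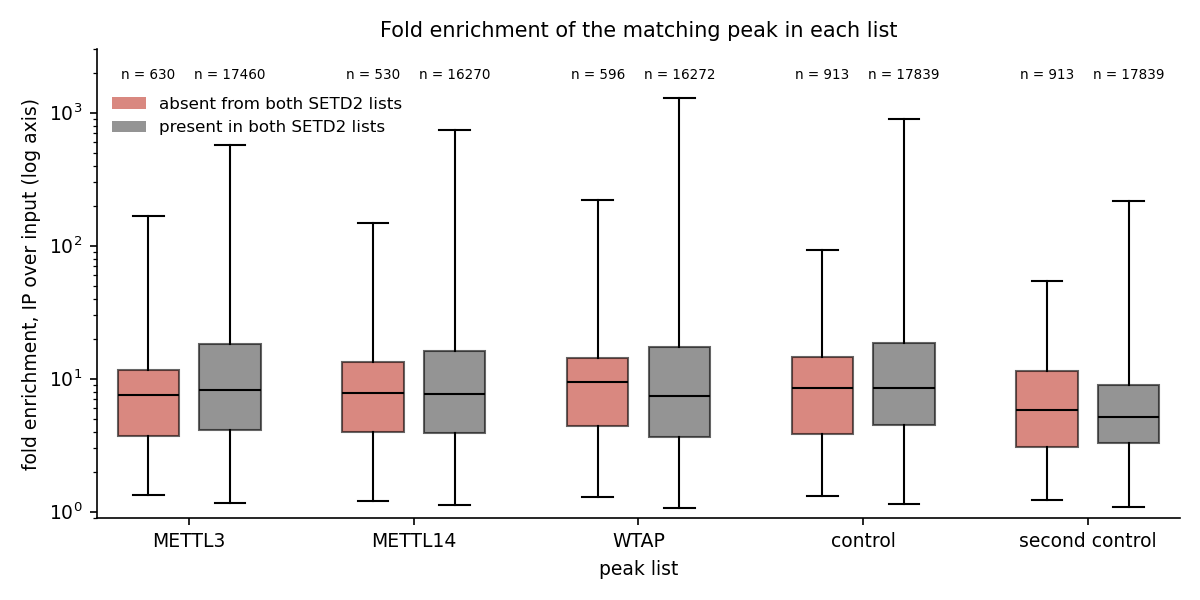
Authors' fold enrichment of the matching peak (log axis) in the lists of METTL3, METTL14, WTAP, control and second control, for members (left of each pair) and peaks present in both SETD2 lists (right); boxes are quartiles with the median, whiskers the lowest and highest peak, and n the peaks with a match. The boxes overlap in all 5 lists, with medians of 8.57 and 8.57 in the control list and 5.85 and 5.15 in the second control list.

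The 10 members of highest fold in the control list lay on 6 chromosomes, and all coordinates here are hg19. The highest was the minus-strand peak chr7:98741454-98741693, 240 bases wide, with a fold of 9.13 (METTL3 list), 10.4 (METTL14 list), 12.7 (WTAP list), 92.6 in the control list and 10.7 in the second control list. The control list stands apart from the other 4 for this peak. Of the 10, each had its highest fold in the control list, the list they were ranked by.

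The minus-strand peak chr2:120980481-120980836 had folds of 32.5 (METTL3), 22.0 (METTL14) and 10.2 (WTAP) in the writer lists, 53.1 in the control list and 3.49 in the second control list. Its nearest SETD2 peaks lay 916 bases away in the SETD2 #1 list and 591 bases away in the SETD2 #2 list. The plus-strand peak chr3:134968320-134978200, of 2 blocks, had 9.39 (METTL3), 14.0 (METTL14) and 24.3 (WTAP) in the writer lists, 38.6 in the control list and 9.16 in the second control list. Its gene held 5 control peaks and none in either SETD2 list. A peak starting at chr1:101491434 was listed on both strands, with folds of 37.7 (minus) and 36.9 (plus) in the control list and with SETD2 peaks no nearer than 33169 bases.

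The plus-strand peak chr2:85198216-85198575, the only control peak of its gene, had folds of 11.6 in the WTAP list, 44.6 in the control list and 14.5 in the second control list. The METTL3 and METTL14 lists did not hold it. Its gene had no peak in either SETD2 list. The plus-strand peak chr22:21996550-21997452 had 14.0 in the METTL3 list, 9.38 in the WTAP list, 36.7 in the control list and 9.93 in the second control list, with a log10 p of -85.3 in the control list. SETD2 peaks lay 118 bases from it in the SETD2 #1 list and 926 bases from it in the SETD2 #2 list.

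**Figure D3:**
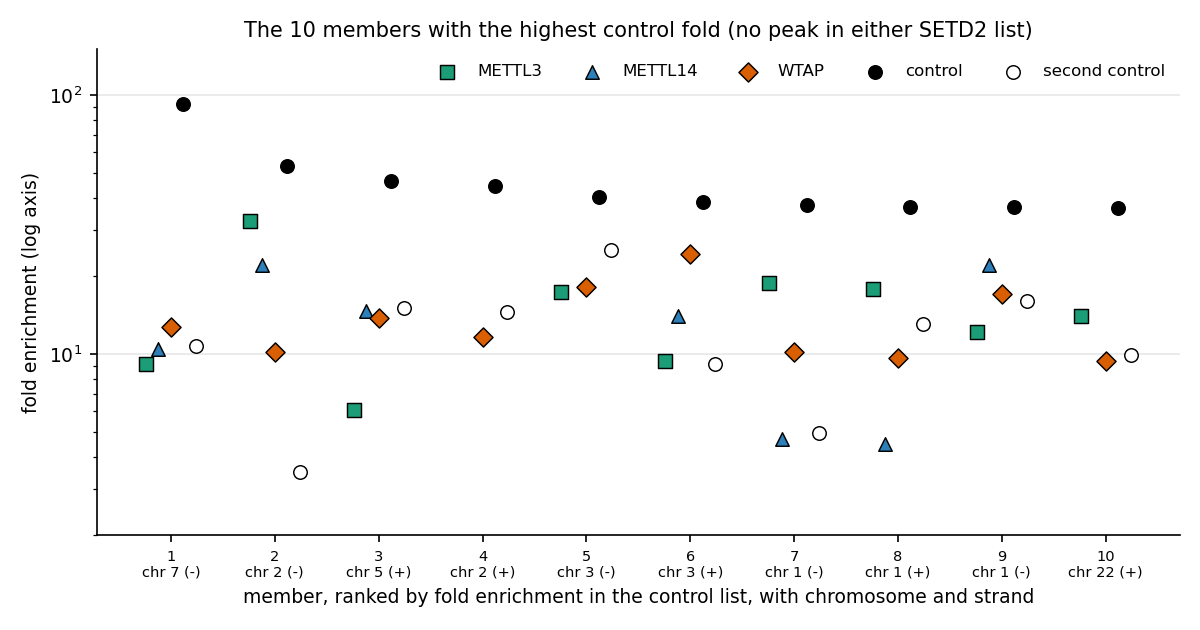
Authors' fold enrichment (log axis) of the 10 members with the highest control fold, in the METTL3, METTL14, WTAP, control and second control lists; a missing symbol means that the list held no matching peak. The control values lie between 36.7 and 92.6 and are the highest of each peak, by which the 10 were ranked, and the second control values lie between 3.49 and 25.2.

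By p-value, the strongest member was a single place listed 4 times. Around chr17:80207271-80207513 the control list held 3 near-identical peaks on the plus strand and 1 on the minus strand, with folds between 8.22 and 8.95 and a log10 p of -103. The place was also held by all 3 writer lists, with folds of 6.89 to 7.61 with METTL3, 5.30 to 5.42 with METTL14 and 6.49 to 6.91 with WTAP, and of 3.80 to 3.88 in the second control list. A SETD2 #1 peak lay 237 to 239 bases from the plus-strand copies. The minus-strand gene held 8 peaks in each SETD2 list and 10 in the control list. Where a place is listed on both strands, the lists do not show which of the overlapping genes carries the mark.

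After that place came the minus-strand peak chr2:3605699-3605967, with folds of 10.1 in the METTL3 list, 6.45 in the WTAP list, 13.3 in the control list and 6.87 in the second control list, and a log10 p of -96.2 in the control list. The plus-strand peak chr22:50986791-50987628 had 9.89 (METTL3), 13.4 (METTL14) and 95.4 (WTAP) in the writer lists, 33.1 in the control list and 12.2 in the second control list. SETD2 peaks lay 89 bases from it in the SETD2 #1 list and 238 bases from it in the SETD2 #2 list. Several of the 10 members of lowest p thus had a SETD2 peak within 1000 bases. The minus-strand peak chr17:76117157-76118696, of 3 blocks, had the lowest log10 p of them in the second control list, at -44.9, with a fold there of 4.09.

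Some members were higher in the second control list than in the control list. That was so for 300 of the 913 (32.9%), against 23.5% of the peaks present in both SETD2 lists, and the second control list had the lower median fold. Within the weakest quintile by p the order was the opposite, at 37.4% of the members (33.9 to 40.9) against 51.9% of the peaks present in both (49.6 to 54.1). The highest was the minus-strand peak chr17:62207354-62207504, with 25.9 in the WTAP list, 14.1 in the control list and 54.2 in the second control list, and with SETD2 peaks 133 and 432 bases away. The minus-strand peak chr16:67217644-67217883 had similar values in both controls, 29.1 in the control list and 34.0 in the second control list, with 22.8 in the METTL3 list, 18.3 in the METTL14 list and 7.72 in the WTAP list. The plus-strand peak chr6:33589190-33589370 had 9.43 in the control list and 33.9 in the second control list, with 3.15 in the METTL14 list and 18.8 in the WTAP list.

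The 913 members fell in 856 genes, as the files assign them. A single member was found in 811 genes, 2 members in 40 and at least 3 in 5. Near copies and mirrored strands reduce the number of places: members that overlap on a strand form 891 places, and 867 if the strands are joined. Only 4 genes with at least 2 control peaks had all of them among the members, so members were mostly single peaks of genes with other peaks.

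Most members lay in genes with a peak in a SETD2 list, but a smaller share than among all eligible peaks. A peak elsewhere in the gene was found in both SETD2 lists for 570 members (62.4%, 59.2 to 65.6). Of all eligible peaks, 93.9% lay in genes with a peak in both lists, where a peak held by both lists counts for its own gene. The gene had a peak in the SETD2 #1 list only for 55 members and in the SETD2 #2 list only for 70. Both of these shares were higher than among all eligible peaks. The gene had none in either list for 218 members (23.9%, 21.1 to 26.8), beside 1.05% of all eligible peaks, a difference that the rule fixes in part. For 170 members (18.6%) the gene had no other control peak, near the 17.2% of all eligible peaks. The 856 genes held 1609 peaks in the SETD2 #1 list, 1529 in the SETD2 #2 list, 2383, 2294 and 2337 in those of METTL3, METTL14 and WTAP, 2873 in the control list and 2526 in the second control list. They held 1178 eligible peaks that were not members, of which 966 were present in both SETD2 lists. Choosing the genes by a lost peak fixes part of these differences.

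The gene ENSG00000156453.13, on the minus strand of chromosome 5, was one of the 4 that lost every peak. It held 0 peaks in the SETD2 #1 list, 0 in the SETD2 #2 list, 0 (METTL3), 3 (METTL14) and 5 (WTAP) in the writer lists, 5 in the control list and 4 in the second control list. Its 5 members lay within chr5:141242939-141248373, with control folds of 12.0, 12.0, 11.1, 10.3 and 24.0. The METTL14 list gave the place lower folds, 6.71 to 11.2, at lower p, with a log10 p of -43.5 for the first of them against -4.10 in the control list. The METTL3 list lacked this gene as well, so its absence was not limited to the SETD2 lists.

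The gene ENSG00000136383.6, on the plus strand of chromosome 15, held 0 peaks in the SETD2 #1 list, 2 in the SETD2 #2 list, 8 (METTL3), 6 (METTL14) and 4 (WTAP) in the writer lists, 7 in the control list and 6 in the second control list. Its 5 members lay within chr15:85383536-85411828, and no other eligible peak lay in that stretch. Their folds were 220, 27.6, 134, 134 and 70.6 in the WTAP list, against 12.0, 32.6, 15.4, 13.7 and 11.1 in the control list. The WTAP value was above the control value for 4 of the 5, and 2 members share a WTAP peak value. The METTL3 list gave all 5 a fold between 15.2 and 23.3.

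A similar case was a plus-strand gene of chromosome 1 with 2 members within chr1:38022520-38027346. The members had 11.7 and 20.8 in the METTL3 list, 62.2 and 59.8 in that of METTL14, 23.2 and 59.0 in that of WTAP, 22.3 and 20.6 in the control list, and 3.05 and 6.11 in the second control list. The METTL14 list gave them a log10 p of -120 and -84.4, beside -18.3 and -11.7 in the control list. The gene kept 1 peak in either SETD2 list, and the nearest lay 298 bases from the second member. Another plus-strand gene on chromosome 5 had 6 members within chr5:140580866-140581553, but these were 3 places with near copies. It had 0 peaks in either SETD2 list, 2 (METTL3), 0 (METTL14) and 4 (WTAP) in the writer lists, 6 in the control list and 4 in the second control list.

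The members were spread along the genome. Joined where no more than 50000 bases separated neighbours, they formed 776 runs, of which 668 held a single member and 18 held at least 3. The share of members among eligible peaks was lowest on chromosome 16, at 44 of 1552 (2.84%, 2.07 to 3.79), and highest on chromosome 5, at 51 of 871 (5.86%, 4.39 to 7.63). Over all eligible peaks the share was 4.16%. Chromosome 5 held 3 of the 6 runs with at least 4 members, but near copies and mirrored strands count in these runs. With strands joined, the chromosome 5 run of 7 members was 4 places and its run of 4 members was 2 places. The run at chr17:80207271-80207513 was 1 place. The intervals treat peaks as independent, which neighbouring peaks are not.

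The nearest remaining SETD2 peak on the same strand lay at widely varying distances from a member. The median distance was 9102 bases to a SETD2 #1 peak (quartiles 723 and 43510) and 8496 bases to a SETD2 #2 peak (quartiles 1095 and 39565), counted along the genome from the member's outer ends. A SETD2 peak within 100 bases was found for 41 members in the SETD2 #1 list, for 36 in the SETD2 #2 list and for 64 in at least 1 of them. Within 1000 bases it was found for 254 members (27.8%) in the SETD2 #1 list and 222 (24.3%) in the SETD2 #2 list. In at least 1 of the lists it was found for 317. In 364 members (39.9%) both lists had no peak within 10000 bases. Distances of other eligible peaks are not given here, so these counts have no background.

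At the edge of the rule members and other peaks differed by a few bases. Just inside it, the minus-strand member chr22:50689528-50689618 lay 6 bases from a SETD2 #1 peak and had folds of 6.86 in the control list and 10.3 in the second control list. The 2-block minus-strand member chr19:50371139-50381548 had peaks of both SETD2 lists in the gap between its blocks, and its control fold was 3.14. The 2-block minus-strand member chr19:44844584-44901403 had a SETD2 #2 peak in that gap, and had folds of 4.57 in the control list and 22.9 in the second control list. Just outside it, the minus-strand peak chr1:31342883-31343033 shared 1 base with a SETD2 #2 peak, and its control fold was 1.95. The minus-strand peak chr1:47078703-47078763 and the plus-strand peak chr1:94312939-94312999 each shared 1 base with a SETD2 #1 peak, with control folds of 6.86 and 9.43. In all, 33 eligible peaks stayed out of the members through an overlap of 1 to 10 bases.

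Among the control peaks listed for a gene, members were more often the 5′-most than peaks present in both SETD2 lists were. This is an order among listed peaks, and their place in the transcript was not analysed. In genes with at least 2 control peaks the member was the 5′-most of them in 376 of 743 cases (50.6%, 46.9 to 54.3), against 4452 of 14840 peaks present in both SETD2 lists (30.0%, 29.3 to 30.7). The member was the 3′-most in 123 of 743 cases (16.6%, 14.0 to 19.4), against 34.6% (33.8 to 35.3). Peaks absent from 1 SETD2 list only lay between these, with 41.2% 5′-most for SETD2 #1 and 40.4% for SETD2 #2.

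Part of this order went with peak strength. Within the weakest quintile by p the 5′-most share was 52.5% for the members (48.5 to 56.5) and 39.4% for the peaks present in both (36.9 to 41.9), and the 3′-most share was 15.7% for the members and 28.3% for the peaks present in both. In 506 genes a member could be set beside a peak of the same gene that both SETD2 lists held. All members lay upstream of the kept peaks in 329 of these genes (65.0%) and downstream in 84 (16.6%), with a median log10 p of -4.81 for the members and -38.9 for the kept peaks. In the 74 genes where both were of the weakest quintile by p, the members lay upstream in 38 (51.4%) and downstream in 33 (44.6%). So the order within a gene was nearly even among weak peaks, on few genes and with a median log10 p of -3.86 for the members and -5.68 for the kept peaks, while the share of 5′-most peaks stayed higher.

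**Figure D4:**
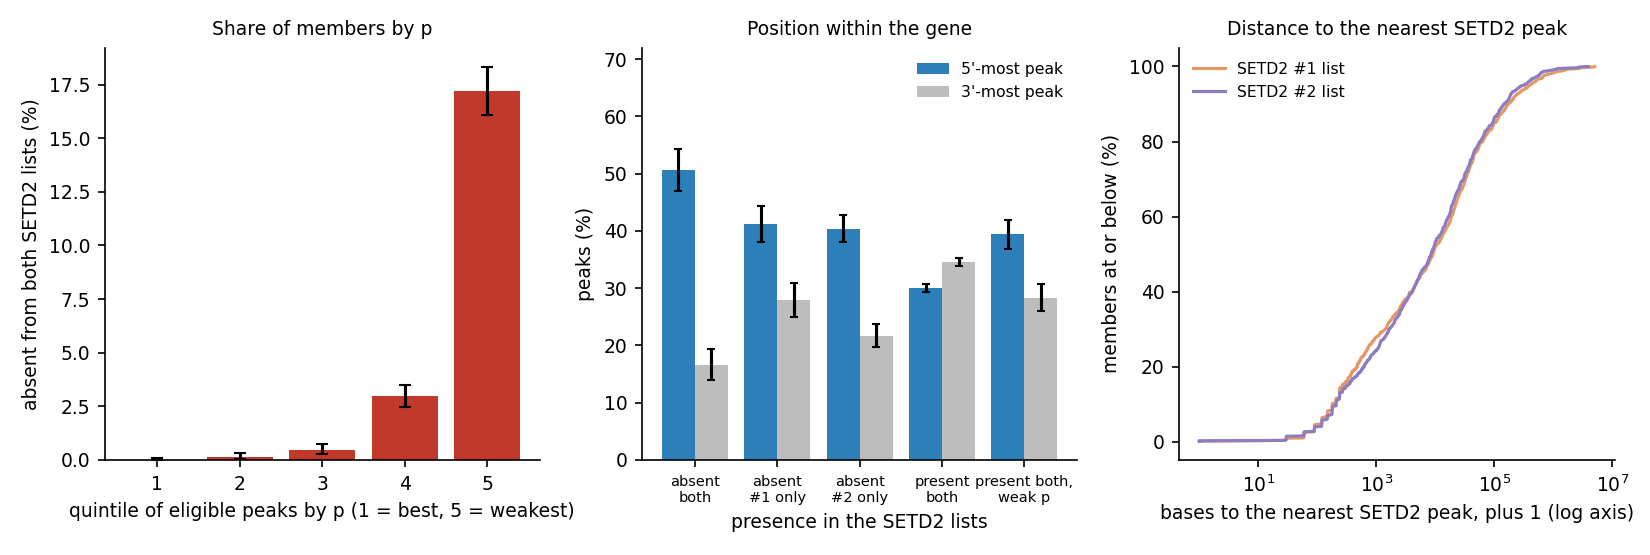
Left, members as a share of eligible peaks (%) in quintiles by control p; middle, share of peaks (%) that are the 5′-most or 3′-most control peak of a gene with at least 2, by presence in the SETD2 lists, with exact 95% intervals as bars in both panels; right, cumulative share of the 913 members (%) against the distance in bases to the nearest same-strand SETD2 peak on a log axis. The share of members is 17.2% in the weakest quintile and 0 in the best, the 5′-most share is 50.6% for the members and 30.0% for the peaks present in both, and the median distances are 9102 and 8496 bases.

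The same rule was applied with a writer list in the place of SETD2 #1, the SETD2 #1 list then being one of the 3 of which at least 1 had to hold the peak. It found 593 peaks (2.67%, 2.47 to 2.90) absent from the METTL3 and SETD2 #2 lists, 883 (3.93%, 3.68 to 4.19) absent from the METTL14 and SETD2 #2 lists, and 749 (3.34%, 3.11 to 3.58) absent from the WTAP and SETD2 #2 lists. The share with SETD2 #1 was 4.16% (3.90 to 4.43). The METTL3, METTL14 and WTAP lists lacked 8.15%, 15.7% and 15.1% of the peaks eligible in their turn, against 9.55% for SETD2 #1. A list of a different shRNA target thus lacked, jointly with SETD2 #2, a share of eligible peaks of the same order. The intervals hold counting error alone and treat peaks as independent, so they do not serve to compare the lists. Taken singly, the METTL14 and WTAP lists lacked larger shares than SETD2 #1, but jointly with SETD2 #2 lower ones. These counts share the control, second control and SETD2 #2 lists, so they are given side by side only.

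The reverse rule asked for SETD2 #1 peaks held by the SETD2 #2 list and at least 1 writer list and absent from both controls. It found 106 of 20071 peaks (0.528%, 0.433 to 0.638), against 4.16% in the direction of loss. With all lists shortened to 28645 peaks by p, it found 193 of 19792 (0.975%, 0.843 to 1.12), against 2.70% in the direction of loss. The shares of the directions were closer with equal lists and still differed. Each is a count made by a selection rule, over a different starting list and with no replicate error, so they are given side by side only. Peak numbers were equal in the shortened lists but read numbers are unknown, so the part of depth in the remaining difference was not tested.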

How the data were processed

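Input and IP RNA of HepG2 cells was sequenced in 42 libraries, 3 per group in 14 groups. FastQC 0.11.5, TopHat2 2.1.1 and build hg19 are credited to the submitters' processing notes. The peak caller was exomePeak, run by the authors over replicates 1 to 3 at once, per the labels, which made 1 list per condition. Its version, settings and annotation were not given in the sources used here. The deposited tables give, per the file headers, a p-value, scores (log10 p and log10 false discovery rate, some minus infinity) and a fold enrichment, the ratio of IP over input. The authors' largest false discovery rate was 0.0501. These values were used only to describe and rank peaks. The files do not state read depth, so the precision that depth gives a peak is unknown.

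Repeated rows were counted once. Overlap was at least 1 shared block base on the same strand. The look-up was checked against bedtools 2.31.1 on the overlap of the control list with each other list. A separate check, without bedtools, used a copy of the control list from which known peaks had been removed. Values were computed in Python 3.11.15 (numpy 2.4.6, pandas 2.3.3, scipy 1.17.1) and drawn with matplotlib 3.10.9. Shares carry exact Clopper-Pearson 95% intervals (counting error only). No test between conditions was run, since each has 1 pooled list. The number of per-sample columns left without a sample was 0, so no such column was set aside.

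The members and lists were chosen with earlier results of these data known. Named peaks are the 10 members of highest fold in either control list, the 10 of lowest p (also among those in all 3 writer lists), up to 10 genes with most members, and the 3 nearest to either side of the rule; the text describes some of each. The files pair peaks with Ensembl gene identifiers and no symbols, and the reference table held no such identifiers, so 0 matched. Gene lists, cell type markers, the level of the targeted genes, transcript regions and motifs were therefore not analysed here, and neither was sequence, since no hg19 genome was used.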

Additional observations from a re-analysis of the deposited data

How the results depend on the processing

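No paired analysis was possible because each list pools replicates 1 to 3, and for the same reason no replicate could be left out. When overlap had to reach 50% of each peak, members made up 6.73% of eligible peaks, with a fold of at least 3 it was 6.74%, and with no SETD2 peak allowed within 100 bases it was 3.87%. Asking for all 3 writer lists left 288 members (1.64%), and asking for none gave 1497 (6.22%). Lists of equal length, chosen after seeing the data, gave 548 (2.70%). With a false discovery rate of at most 1e-05 in every list the share was 4.59%, with 691 members of which 80 were among the 913. With the authors' shorter lists it was 4.77%, with 722 members of which 114 were among the 913. Both of these settings thus hold mostly different peaks, since the same filter also removes peaks from the SETD2 lists. The 50% overlap setting, which filters no list, also held mostly different peaks, with 489 of its 1085 members among the 913. The fold of at least 3 shared 642 of its 1055 members with the 913, and the lists of equal length 528 of 548. Whole spans, either strand and repeated rows gave 902 to 913 members. The 5′-most share ran between 44.0% (genes with at least 3 control peaks) and 60.1% (shorter lists), and the 3′-most share between 11.2% and 20.0%. Among all eligible peaks the 5′-most share moved too. It was 32.4% under the main rule and 25.7% in genes with at least 3 control peaks. In the shorter lists it was higher than under the main rule, and in every setting it was below the members' share. The members' range alone therefore does not show how the contrast changed. Median width of the members ran between 151 bases (no writer list asked for) and 296 bases (false discovery rate of at most 1e-05). Their median log10 p ran between -4.10 and -11.2 in the same settings. The share in genes with a peak in a SETD2 list was 76.1% under the main rule. It ran between 63.5% (false discovery rate of at most 1e-05) and 87.0% (50% overlap). The alternatives for transcript regions, motifs and gene lists were not run. The unknown depth limits every absence.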
